A study of Mus musculus with 18 samples.

Results

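The genes that set what a cell does with pyruvate were described in activated mouse CD4+ T cells. They were 8 genes chosen by symbol, of 22783 gene symbols in the table of experiment 1 and 16639 in that of experiment 2. Ldha and Ldhb encode the subunits of lactate dehydrogenase, Slc16a1 and Slc16a3 encode the monocarboxylate transporters MCT1 and MCT4, Pdk1, Pdk2 and Pdk3 encode pyruvate dehydrogenase kinases, and Pdha1 encodes the catalytic subunit those kinases phosphorylate. All 8 were found in both tables, and all 8 passed the filter on low values (1 FPKM or more on average across a table's libraries). FPKM counts fragments relative to transcript length and to the mapped fragments of the library, so it is a level per length.

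Pyruvate stands at a branch point. Lactate dehydrogenase reduces it to lactate and regenerates the NAD+ that glycolysis needs, and the proton-coupled transporters MCT1 and MCT4 carry lactate across the plasma membrane. Alternatively pyruvate enters mitochondria, where the pyruvate dehydrogenase complex turns it into acetyl-CoA for the TCA cycle, unless a kinase of the PDK family has phosphorylated and so switched off the complex. Ldha, Slc16a3 and Pdk1 are textbook targets of the hypoxia-inducible factor HIF-1, which prolyl hydroxylases encoded by Egln1, Egln2 and Egln3 mark for degradation when oxygen is present. Activated T cells are known for making lactate even in oxygen.

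In both experiments sorted naive CD4+ T cells of C57BL/6 spleens were stimulated through CD3 and CD28 and collected on day 4. Experiment 1 compared Cd4Cre cells (WT) with Cd4Cre cells that were Egln1fl/fl, Egln2fl/fl and also Egln3fl/fl (tKO), each with 0, 0.2 or 2 ng/ml TGF-b and 2 libraries per group. Both arms thus carry the Cre transgene, which is driven by the Cd4 promoter and acts from the thymus onward, in the CD8 lineage as well. Experiment 2 compared vehicle with 1 mM DMOG (dimethyloxaloylglycine, a compound that enters cells and blocks dioxygenases that use 2-oxoglutarate, prolyl hydroxylases included) in Wildtype cells at 2 ng/ml TGF-b, with 3 libraries per group. The labels number the series WT1, WT2, tKO1 and tKO2, each with 3 doses, and do not say whether a series is an animal. The labels do not say that the libraries of a group came from separate animals or cultures. In each tKO group 4 Y chromosome genes summed to 60.5 to 67.6 FPKM in replicate 1 and to at most 0.00689 in replicate 2. Those 2 libraries were thus not from the same animal. For the other groups the source is not known, and p-values measure only the spread between these libraries. Neither age nor sex of the animals is given in the labels.

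The FPKM sums were 548974 to 856147 per library in experiment 1 and 386268 to 443734 in experiment 2, and the absolute depth is unknown. Relative depth, read from the lowest values, was least in tKO at 0.2 ng/ml replicate 2, at 0.443 of WT at 0 ng/ml replicate 1. The FPKM of the targeted genes cover whole genes and not the floxed exons, so they do not check the deletion: Egln1 was 92.8 to 122 FPKM in tKO against 20.4 to 44.3 in WT, Egln3 77.4 to 140.2 against 5.68 to 18.7, and Egln2 19.9 to 39.0 against 35.6 to 48.8. The summed FPKM of 4 T cell markers was 973 to 1306 in tKO against 1318 to 1923 in WT, and 490 to 635 with DMOG against 1113 to 1357 with vehicle. B cell markers (4 of 4 in the table) summed to 14.4 to 82.8 FPKM in experiment 1, with overlapping groups, and to 0.843 to 1.20 with DMOG against 6.82 to 11.3 with vehicle. Myeloid markers summed to 3.51 to 13.4 FPKM in experiment 1, with Lyz1 and Lyz2 at 0, and to 2.04 to 3.41 with DMOG against 9.54 to 10.9 with vehicle. Dendritic cell markers (3 of 3 in the table) summed to 2.70 to 6.39 FPKM in tKO against 0.408 to 3.25 in WT, with 5.01 to 6.27 against 0.408 to 0.512 at 2 ng/ml, and to 1.58 to 2.40 with DMOG against 0.259 to 0.402 with vehicle. The CD8 genes Cd8a and Cd8b1 summed to 7.49 to 14.6 FPKM in tKO against 4.02 to 8.84 in WT, with 13.4 to 14.0 against 4.19 to 6.51 at 0.2 ng/ml, and to 6.86 to 10.8 with DMOG against 6.33 to 8.49 with vehicle. NK cell markers, with Ncr1 at 0 in experiment 1, summed to at most 2.34 FPKM in that experiment, and to 0.0289 to 0.0447 with DMOG against 0.225 to 0.530 with vehicle. The part of these marker differences in the results was not tested. In bulk RNA, fewer cells of a type and less RNA per cell cannot be told apart.

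The next 4 upstream regions show the letters of the hypoxia response element core, ACGTG, and of its GCGTG variant, in the members the results turn on. They are the 250 bases before the annotated start, from RefSeq on GRCm38.p6, whereas the expression files use mm9. Capitals mark ACGTG or GCGTG on either strand (CACGT and CACGC on the other), and a CACGTG, which reads ACGTG on both strands, was counted once. Ldha lies at chr7:46845554-46845803 (plus strand), Slc16a3 at chr11:120948817-120949066 (plus strand), Pdk1 at chr2:71872974-71873223 (plus strand) and Pdk2 at chr11:95041372-95041621 (minus strand).
Ldha: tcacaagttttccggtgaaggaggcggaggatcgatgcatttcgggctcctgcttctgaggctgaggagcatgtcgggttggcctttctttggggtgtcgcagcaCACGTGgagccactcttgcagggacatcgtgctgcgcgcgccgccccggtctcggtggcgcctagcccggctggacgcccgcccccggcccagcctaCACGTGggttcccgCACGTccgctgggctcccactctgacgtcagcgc
Slc16a3: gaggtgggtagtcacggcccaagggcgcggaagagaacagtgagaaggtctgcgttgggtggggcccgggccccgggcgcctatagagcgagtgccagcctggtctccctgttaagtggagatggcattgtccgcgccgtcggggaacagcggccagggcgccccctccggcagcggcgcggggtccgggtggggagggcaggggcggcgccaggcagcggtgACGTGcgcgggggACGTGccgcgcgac
Pdk1: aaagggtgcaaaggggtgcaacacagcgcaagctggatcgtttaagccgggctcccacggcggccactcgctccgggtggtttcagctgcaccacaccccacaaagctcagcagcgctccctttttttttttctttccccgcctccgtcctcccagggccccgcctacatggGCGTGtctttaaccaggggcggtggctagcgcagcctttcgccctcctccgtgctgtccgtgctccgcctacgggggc
Pdk2: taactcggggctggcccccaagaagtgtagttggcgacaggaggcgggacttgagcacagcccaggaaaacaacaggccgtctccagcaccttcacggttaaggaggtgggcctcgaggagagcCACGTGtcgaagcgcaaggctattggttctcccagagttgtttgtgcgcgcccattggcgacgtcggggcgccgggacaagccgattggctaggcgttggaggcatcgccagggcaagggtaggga

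The Ldha region held 3 ACGTG, 2 of them as CACGTG, and the Slc16a3 region held 2. Over 32851 windows of 250 bases, 16.6% held at least 1 ACGTG, 1.95% at least 2 and 0.256% at least 3. The Pdk1 region held no ACGTG and 1 GCGTG, which 28.2% of windows held at least once. The Pdk2 region held 1 ACGTG, as CACGTG. Among the other members, Slc16a1 and Pdk3 each had 1 ACGTG, and Ldhb and Pdha1 had none. GCGTG was found 3 times upstream of Pdha1, 3 times upstream of Pdk3, 2 times upstream of Slc16a1 and 1 time upstream of Ldhb, but not in the Ldha, Slc16a3 and Pdk2 regions printed here. Of all windows 8.63% held at least 2 GCGTG and 2.77% at least 3. A match is a string of letters and not a measured binding site. Ldha, Pdk1 and Pdk2 have a second annotated start in the table, whose window held no ACGTG. For Ldha, a short stretch within 50 bases after the printed start lay in 0 Ldha transcripts of the GENCODE set. The same stretch after its second start lay in 1.

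In tKO cells the transcripts of Ldha, of the exporter Slc16a3 and of the kinase Pdk3 were higher, and those of Pdk2 and of the dehydrogenase subunit Pdha1 lower. Over the 3 doses 5 of the 8 genes were called higher in tKO (Ldha, Slc16a1, Slc16a3, Pdk1, Pdk3) and 2 lower (Pdk2, Pdha1), by limma with Benjamini-Hochberg adjustment over all 10354 tested genes and a threshold of 0.05. The Slc16a1 call was lost in 14 of 26 alternatives, among them the labelled series as a random factor (adjusted p = 0.0581), and the Pdk1 call in 3 of 26, with a Pdk1 difference of -0.09 at 0 ng/ml. The background was 13.9% of tested genes called higher and 13.3% called lower. The share of all tested genes whose groups did not overlap was not counted, so statements on overlap below are descriptions only. The median log2 fold change of the 8 genes was 0.52, beside -0.02 over all tested genes. With DMOG, 4 of the 8 were called higher (Ldha, Slc16a3, Pdk1, Pdk3) and 3 lower (Ldhb, Pdk2, Pdha1). There 27.7% of 9884 tested genes were called higher and 33.2% lower, so calls of this kind were common in that experiment. The median of the 8 genes was 0.30, beside -0.03 over all genes. Fold changes, given ± SE, are differences of log2(FPKM + 1), and all adjusted p-values are limma's. Those over the doses treat the 3 libraries of a labelled series as independent. In experiment 1 the spread of each gene was estimated over all groups together. Leaving out a library of a group that is not compared therefore changes the SE and p-value but not the fold change.

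**Figure D1:**
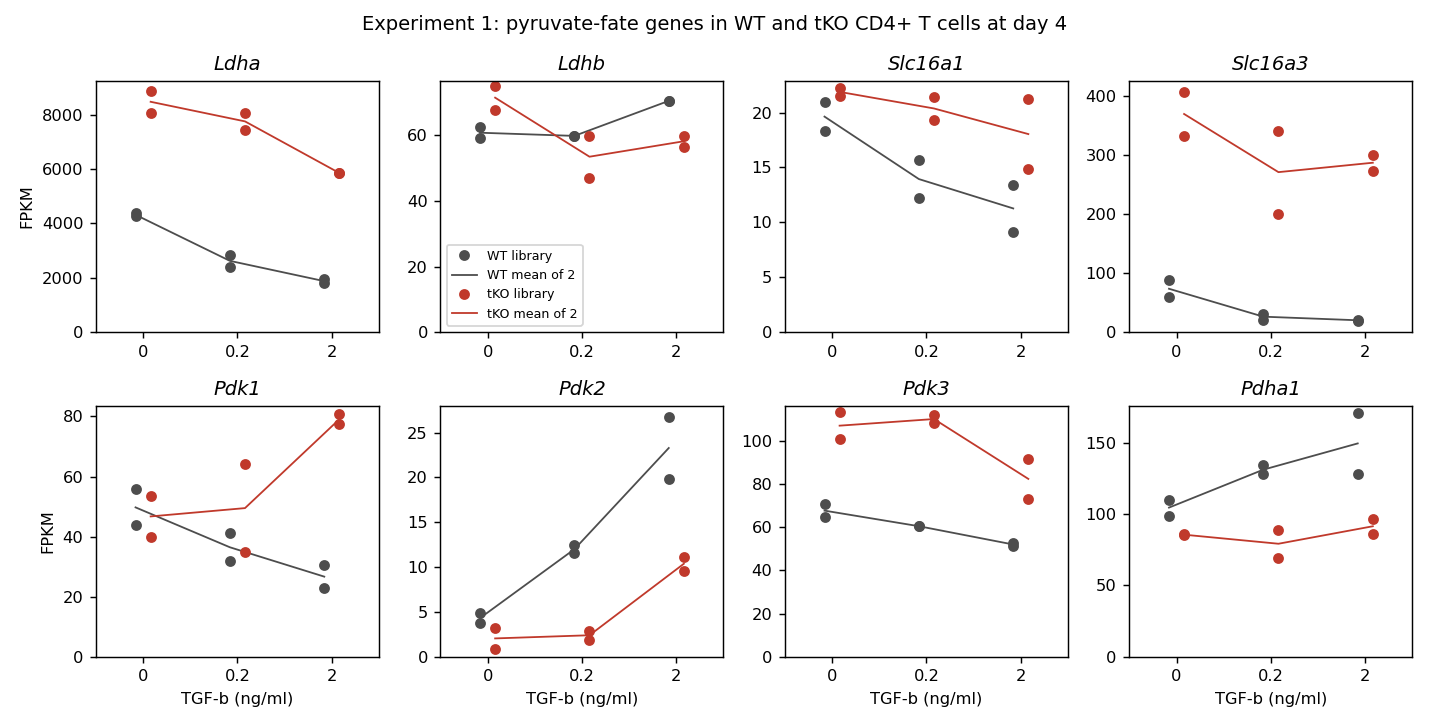
FPKM of each of the 8 genes in experiment 1 (y axis, linear from 0) against TGF-b dose (x axis, ng/ml, evenly spaced), with 1 point per library and lines through the means of 2 libraries, WT in grey and tKO in red. Ldha, Slc16a3 and Pdk3 lay higher and Pdha1 lower in all 6 tKO libraries than in any WT library, and Pdk1 separated at 2 ng/ml. Of all tested genes 13.9% were called higher and 13.3% lower over the doses, and the share without overlap was not counted.

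Ldha, whose muscle-type subunit favours the reduction of pyruvate to lactate, had the third highest mean FPKM of all symbols in experiment 1. The mm9 locus is chr7:54101173-54111127. In WT the 2 libraries were 4263 and 4369 FPKM without TGF-b, 2397 and 2846 at 0.2 ng/ml, and 1961 and 1790 at 2 ng/ml. In tKO they were 8064 and 8881, then 7426 and 8077, then 5861 and 5844. The lowest tKO library therefore lay above the highest WT library, and only the tKO groups at 0 and 0.2 ng/ml overlapped among neighbours in the order of levels. The tKO minus WT difference was 1.39 ± 0.10 over the doses (adjusted p = 2.9e-07). It was 0.97 ± 0.17 at 0 ng/ml (adjusted p = 0.00275), 1.57 ± 0.17 at 0.2 ng/ml (adjusted p = 5.0e-05) and 1.64 ± 0.17 at 2 ng/ml (adjusted p = 4.4e-05). Quantile normalization gave 1.01 at 0.2 ng/ml. With only the 4 libraries compared in the fit, the call was lost at 0 ng/ml (adjusted p = 0.0750) and at 0.2 ng/ml (adjusted p = 0.0554).

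DMOG moved Ldha in the same direction. Vehicle libraries were 682, 703 and 765 FPKM and DMOG libraries 2673, 3051 and 3005, without overlap. The difference was 2.02 ± 0.10 (adjusted p = 2.7e-11). The experiments were normalized separately, so their FPKM levels are not compared.

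Ldhb, the heart-type subunit, was not called between the genotypes. In WT it was 62.6 and 59.0 FPKM without TGF-b, 59.8 and 59.9 at 0.2 ng/ml and 70.6 and 70.4 at 2 ng/ml. In tKO it was 67.8 and 75.2, then 59.9 and 47.1, then 56.5 and 59.9, so the genotypes overlapped. The difference over the doses was -0.07 ± 0.10, with a 95% interval from -0.28 to 0.13 (adjusted p = 0.626), and no single dose was called. With DMOG, Ldhb fell by 0.61 ± 0.11 on the log2 scale (adjusted p = 0.000151), from 18.2, 18.9 and 20.9 FPKM to 11.4, 12.2 and 13.4. The locus is chr6:142438768-142456476.

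Ldhb was thus a small share of lactate dehydrogenase transcript everywhere. It made up 1.33% to 3.79% of Ldha plus Ldhb FPKM in the 6 WT libraries and 0.580% to 1.01% in the 6 tKO libraries, without overlap. In WT the share was 1.33% to 1.45% at 0, 2.06% to 2.43% at 0.2 and 3.47% to 3.79% at 2 ng/ml TGF-b. In tKO the corresponding ranges were 0.834% to 0.839%, 0.580% to 0.800% and 0.954% to 1.01%. It was 2.60% to 2.66% with vehicle and 0.398% to 0.442% with DMOG. Shares are ratios of the values above and were not tested apart from them.

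**Figure D2:**
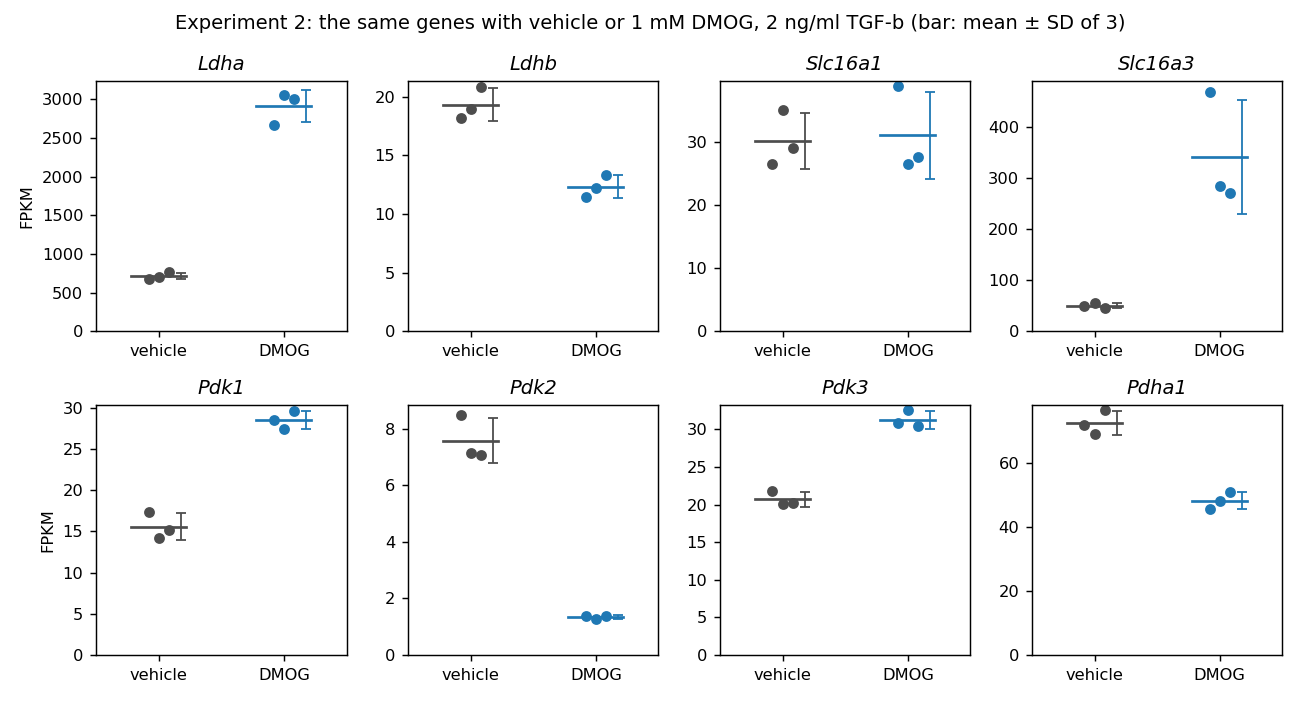
FPKM of the same 8 genes in experiment 2 (y axis, linear from 0), with 1 point per library and bars at the mean ± SD of 3, vehicle in grey and DMOG in blue. The groups did not overlap for 7 genes, and Slc16a1 overlapped. Of all tested genes 27.7% were called higher and 33.2% lower in this experiment, and the share without overlap was not counted.

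Slc16a3 (MCT4, the low-affinity exporter of highly glycolytic cells) had the largest fold change of the 8 genes in both experiments. In WT it was 88.0 and 59.0 FPKM without TGF-b, 31.3 and 21.1 at 0.2 ng/ml and 19.7 and 20.5 at 2 ng/ml. In tKO it was 406 and 333, then 341 and 201, then 300.3 and 274. All tKO libraries lay above all WT libraries, and the tKO group at 0.2 ng/ml overlapped the tKO groups at the other doses. The difference was 3.13 ± 0.15 over the doses (adjusted p = 9.3e-09). By dose it was 2.34 ± 0.26, 3.30 ± 0.26 and 3.77 ± 0.26 from 0 to 2 ng/ml, with adjusted p-values between 1.7e-06 and 7.3e-05. In experiment 2 it was 49.4, 55.6 and 45.4 FPKM with vehicle and 469, 285 and 271 with DMOG (2.70 ± 0.17, adjusted p = 2.8e-10). The symbol summed 2 entries in experiment 1 and 3 in experiment 2. The locus is chr11:120809797-120820607.

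Slc16a1 (MCT1, a carrier of higher affinity that serves uptake as well as export) differed less. In WT it was 20.9 and 18.3 FPKM, 15.7 and 12.2, and 13.4 and 9.10 with rising TGF-b, and in tKO 22.2 and 21.5, 19.3 and 21.4, and 14.8 and 21.2. The genotypes overlapped when the doses were pooled, while at each dose both tKO libraries lay above both WT libraries. The difference over the doses was 0.44 ± 0.14 (adjusted p = 0.0341), and no single dose was called. That call was lost in 14 of 26 alternatives, among them the labelled series as a random factor (adjusted p = 0.0581), the series WT1, WT2 or tKO2 left out (adjusted p = 0.0505, 0.395 and 0.191, with 0.26 for the difference without WT2), and 8 single libraries left out (both of WT at 0 and of tKO at 0 ng/ml, and replicate 2 of each other group, adjusted p = 0.0551 to 0.114). With DMOG the difference was 0.03 ± 0.14, with a 95% interval from -0.28 to 0.33 (adjusted p = 0.882), from 26.5, 35.1 and 29.0 FPKM with vehicle to 38.9, 26.6 and 27.6. The locus is chr3:104442590-104462385.

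The make-up of the exporter transcripts shifted with Slc16a3. It was 59.5% to 80.8% of Slc16a1 plus Slc16a3 FPKM in WT and 90.4% to 95.3% in tKO. With vehicle it was 61.0% to 65.1% and with DMOG 90.7% to 92.3%. MCT1 and MCT4 need the chaperone basigin, encoded by Bsg, to reach the plasma membrane. Bsg was 213 to 376 FPKM in WT and 629 to 1211 in tKO, a difference of 1.75 ± 0.09 over the doses (adjusted p = 1.4e-08), and rose by 1.16 ± 0.15 with DMOG (adjusted p = 3.5e-06). Emb, which encodes embigin, a related chaperone, went the other way. It was 55.1 to 87.8 FPKM in WT and 34.7 to 53.0 in tKO (-0.70 ± 0.10, adjusted p = 0.000158), and it fell by 0.47 ± 0.14 with DMOG (adjusted p = 0.00977). The DMOG call was lost without vehicle replicate 2 (adjusted p = 0.0741), with no filter on low values (adjusted p = 0.0659) and with a replicate block by number (adjusted p = 0.0588).

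**Figure D3:**
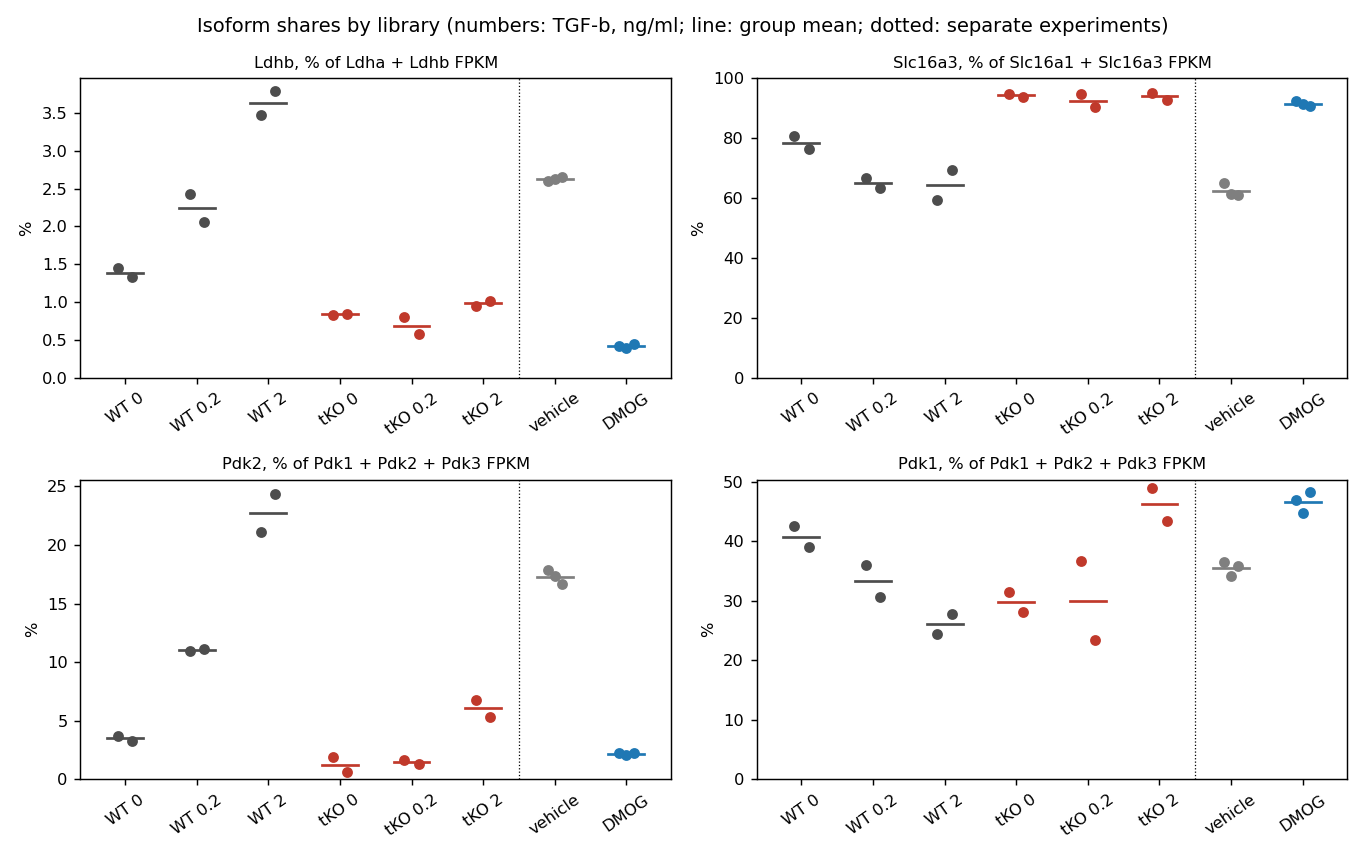
Share of FPKM held by 1 isoform (y axis, %, linear from 0) in each library, for Ldhb within lactate dehydrogenase, Slc16a3 within the exporter pair, and Pdk2 and Pdk1 within the 3 kinases. Points are libraries, short lines are group means, and the dotted line separates the experiments, where Ldhb shares of tKO (0.580% to 1.01%) lie below all WT libraries (1.33% to 3.79%).

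The 3 kinase genes did not move together. Pdk1 rose in tKO at 2 ng/ml TGF-b, Pdk3 rose in tKO at each dose, and Pdk2 was lower in tKO and higher with TGF-b.

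Pdk1, the kinase classically induced by HIF-1, fell with 2 ng/ml TGF-b in WT. There it was 55.7 and 43.7 FPKM without TGF-b, 41.1 and 31.8 at 0.2 ng/ml and 23.0 and 30.4 at 2 ng/ml. In tKO it was 53.6 and 39.9, then 64.2 and 34.8, then 80.7 and 77.5. The genotypes overlapped at 0 and 0.2 ng/ml and stood apart at 2 ng/ml, where the tKO libraries were the highest of the 12. The tKO minus WT difference was -0.09 ± 0.27 without TGF-b, with a 95% interval from -0.68 to 0.49 (adjusted p = 0.886), and 0.38 ± 0.27 at 0.2 ng/ml (adjusted p = 0.375). At 2 ng/ml it was 1.55 ± 0.27 (adjusted p = 0.00191). The difference over the doses was 0.61 ± 0.16 (adjusted p = 0.0106). It lost its call without the series WT1 (adjusted p = 0.0706), WT2 (adjusted p = 0.134) or tKO1 (0.39, adjusted p = 0.0780). The locus is chr2:71711328-71741915.

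The effect of 2 ng/ml TGF-b on Pdk1 itself differed between genotypes. It was -0.88 ± 0.27 in WT (adjusted p = 0.0441) and 0.76 ± 0.27 in tKO (adjusted p = 0.0700), and the difference between the 2 effects was 1.64 ± 0.38 (adjusted p = 0.0401). Of the 8 genes it alone was called in that test, where 1.55% of tested genes were called higher and 1.43% lower. The difference lay between 1.43 and 1.85 under all 22 alternatives, but its call was lost in 10 of them: with no filter on low values (adjusted p = 0.132) and without any WT library, tKO at 0 ng/ml replicate 2, or either tKO library at 2 ng/ml (adjusted p = 0.0588 to 0.194). The tKO effect passed without either tKO library at 0.2 ng/ml (adjusted p = 0.0190 and 0.0179). The WT fall lost its call without any WT library or either tKO library at 2 ng/ml (adjusted p = 0.0566 to 0.259), with median-of-ratios scaling (adjusted p = 0.0555) and with no filter (adjusted p = 0.133). With DMOG, at the same 2 ng/ml TGF-b, Pdk1 was 28.5, 27.4 and 29.6 FPKM against 17.4, 14.1 and 15.2 with vehicle, a rise of 0.84 ± 0.11 (adjusted p = 5.9e-06).

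Pdk2, a broadly expressed kinase, had the lowest mean FPKM of the 8 genes. In WT it was 4.91 and 3.72 FPKM without TGF-b, 12.5 and 11.5 at 0.2 ng/ml and 19.8 and 26.7 at 2 ng/ml. In tKO it was 3.24 and 0.860, then 2.88 and 1.92, then 11.2 and 9.57. The genotypes did not overlap at any dose, and the tKO libraries at 2 ng/ml lay just below the WT libraries at 0.2 ng/ml. The tKO minus WT difference was -1.31 ± 0.20 over the doses (adjusted p = 0.000302). By dose it was -0.91 ± 0.35 without TGF-b (adjusted p = 0.141), -1.95 ± 0.35 at 0.2 ng/ml (adjusted p = 0.00229) and -1.08 ± 0.35 at 2 ng/ml (adjusted p = 0.0537). These values depend on the amount added before the logarithm, since Pdk2 is low: with 5 FPKM added, the difference was -0.83 over the doses, -1.20 at 0.2 ng/ml and, now called, -0.87 at 2 ng/ml (adjusted p = 0.00930). The call without TGF-b appeared when tKO replicate 1 was left out (-1.51, adjusted p = 0.0155), and that at 2 ng/ml when any tKO library at 0 or 0.2 ng/ml was left out (adjusted p = 0.0172 to 0.0431). The locus is chr11:94887571-94902718.

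TGF-b raised Pdk2 in both genotypes. The effect of 2 ng/ml was 2.19 ± 0.35 in WT (adjusted p = 0.00118) and 2.01 ± 0.35 in tKO (adjusted p = 0.00235), and the difference between these effects was -0.17 ± 0.50 (adjusted p = 0.889). With 5 FPKM added the tKO effect was 1.14. DMOG lowered Pdk2 from 8.50, 7.16 and 7.09 FPKM to 1.37, 1.26 and 1.38, with no overlap. The difference was -1.87 ± 0.11 (adjusted p = 8.5e-11), and -0.99 with 5 FPKM added.

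Pdk3, an X-linked kinase that resists inhibition by pyruvate, was 70.6 and 64.7 FPKM, 60.6 and 60.3, and 51.3 and 52.6 in WT with rising TGF-b. In tKO it was 113 and 101, then 108 and 112, then 73.0 and 91.7. All tKO libraries lay above all WT libraries. The difference was 0.72 ± 0.09 over the doses (adjusted p = 7.1e-05), 0.65 ± 0.16 without TGF-b (adjusted p = 0.0207), 0.85 ± 0.16 at 0.2 ng/ml (adjusted p = 0.00312) and 0.64 ± 0.16 at 2 ng/ml (adjusted p = 0.0164). Without TGF-b the call was lost when any 1 of the 4 libraries compared was left out (adjusted p = 0.0566 to 0.165) and with quantile normalization (adjusted p = 0.0566). At 2 ng/ml it was lost without either WT library or tKO replicate 2 (adjusted p = 0.0728 to 0.174). With DMOG Pdk3 rose by 0.57 ± 0.11 (adjusted p = 0.000172), from 21.8, 20.1 and 20.2 FPKM to 30.8, 32.6 and 30.4. The locus is chrX:91009534-91077434, with 2 entries summed in experiment 1.

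Within the kinase trio the shares followed these changes. Pdk2 was 3.32% to 24.3% of the summed FPKM of Pdk1, Pdk2 and Pdk3 in WT and 0.608% to 6.78% in tKO. Its WT share was 3.32% to 3.74% at 0, 10.9% to 11.1% at 0.2 and 21.1% to 24.3% at 2 ng/ml. Pdk1 held 39.0% to 42.5% in WT without TGF-b and 24.4% to 27.7% at 2 ng/ml, against 28.2% to 31.5% and 43.3% to 49.0% in tKO. With vehicle and DMOG, Pdk2 held 16.7% to 17.8% and 2.06% to 2.26%, and Pdk1 34.2% to 36.4% and 44.7% to 48.2%. Pdk3 held the largest of the 3 shares in 17 of 18 libraries, and Pdk1 did in tKO at 2 ng/ml replicate 1 (49.0% against 44.3% for Pdk3).

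Pdha1, the E1 alpha subunit that carries the phosphorylated serines, was lower in tKO. In WT it was 110.1 and 99.0 FPKM without TGF-b, 128 and 134 at 0.2 ng/ml and 128 and 171 at 2 ng/ml. In tKO it was 85.4 and 85.8, then 89.1 and 69.4, then 86.3 and 96.7. No tKO library reached the lowest WT library. The difference over the doses was -0.57 ± 0.10 (adjusted p = 0.00114). It was -0.28 ± 0.18 without TGF-b (adjusted p = 0.406), -0.73 ± 0.18 at 0.2 ng/ml (adjusted p = 0.0153) and -0.69 ± 0.18 at 2 ng/ml (adjusted p = 0.0203). The call at 0.2 ng/ml was lost without either WT library or tKO replicate 2 (adjusted p = 0.0737 to 0.109), and that at 2 ng/ml without WT replicate 2 or either tKO library (adjusted p = 0.0734 to 0.186). With DMOG Pdha1 fell by 0.58 ± 0.11 (adjusted p = 0.000177), from 72.0, 69.2 and 76.7 FPKM to 45.5, 48.2 and 50.9. The locus is chrX:156426364-156576268 and is shared with an entry for Map3k15, whose mean was 0.190 FPKM.

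Pdk3 and Pdha1 are X-linked, and the libraries of series tKO1 differed from the rest in sex-linked transcripts. Their 4 Y chromosome genes summed to 60.5 to 67.6 FPKM, and Xist was at most 0.0531. Without that series the Pdk3 difference over the doses was 0.75 (adjusted p = 0.000455) and the Pdha1 difference -0.60 (adjusted p = 0.00460), as large as with it. The ratio of summed kinase FPKM to Pdha1 FPKM was 0.642 to 1.19 in WT and 1.65 to 2.14 in tKO, and 0.554 to 0.663 with vehicle and 1.21 to 1.33 with DMOG. It did not overlap between the groups in either experiment.

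**Figure D4:**
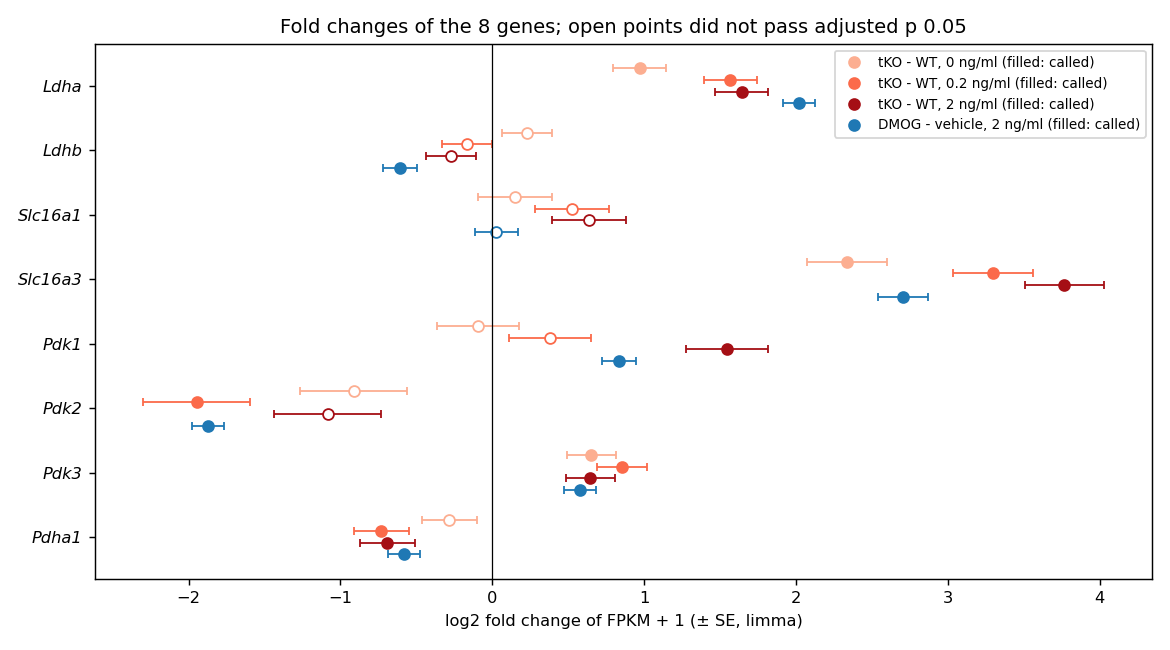
log2 fold change of FPKM + 1 with its SE (x axis) for each gene (y axis), for tKO minus WT at 0, 0.2 and 2 ng/ml TGF-b and for DMOG minus vehicle; filled points passed an adjusted p of 0.05 and open points did not. Slc16a3 reached 3.77 in tKO at 2 ng/ml and 2.70 with DMOG, and Pdk2 lay below 0 in all 4 comparisons.

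Read by dose, the number of the 8 genes called between genotypes was 3 higher and 0 lower without TGF-b. Of all tested genes 5.34% were called higher and 4.3% lower there, and 4 of the 8 genes had an unadjusted p under 0.05. At 0.2 ng/ml 3 were called higher and 2 lower, against 9.11% and 6.38% of all genes. At 2 ng/ml 4 were called higher and 1 lower, against 7.82% and 8.16%. Counts at the 3 doses were not tested against each other.

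In WT, 2 ng/ml TGF-b lowered 4 of the 8 genes and raised 1. The background was 7.91% of tested genes called lower and 7.79% higher. Slc16a3 fell by 1.79 ± 0.26 (adjusted p = 0.000629), Ldha fell by 1.20 ± 0.17 (adjusted p = 0.000595), and Pdk1 and Pdk2 changed as given above. Slc16a1 fell by 0.77 ± 0.24 (adjusted p = 0.0484), a call lost in 13 of 22 alternatives, among them each single library left out of WT at 0 and 0.2 ng/ml, of tKO at 0 and 2 ng/ml, and replicate 2 of WT at 2 ng/ml (adjusted p = 0.0533 to 0.314, with -0.51 without the last). Ldhb, Pdk3 and Pdha1 were not called (0.21, -0.37 and 0.50), though Pdha1 passed without either tKO library at 0.2 ng/ml (adjusted p = 0.0396 and 0.0392). At 0.2 ng/ml Slc16a3 alone was called, at -1.45 ± 0.26 (adjusted p = 0.0140), where 0.676% of genes were called lower and 0.918% higher. Leaving out replicate 1 of WT at 0 ng/ml (adjusted p = 0.188) or replicate 2 of WT at 0.2 ng/ml (adjusted p = 0.184) ended that call. Ldha (-0.72 ± 0.17, adjusted p = 0.0608) passed without either tKO library at 0.2 ng/ml (adjusted p = 0.0187 and 0.0157), and Pdk2 (1.30 ± 0.35, adjusted p = 0.101) without either tKO library at 0 ng/ml (adjusted p = 0.0337 and 0.0342). These comparisons share the WT libraries without TGF-b with the genotype comparison at that dose.

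In tKO, 2 ng/ml TGF-b raised Pdk2 and no other member was called in the main fit (4 of the 8 had an unadjusted p under 0.05). Of all genes 7.59% were called higher and 10.4% lower. With the replicate block by labelled series Pdk1 was called as well (adjusted p = 0.0263). Ldha differed by -0.53 ± 0.17 (adjusted p = 0.0513), which passed without either tKO library at 0.2 ng/ml (adjusted p = 0.0181 and 0.0160), and Slc16a3 by -0.36 ± 0.26 (adjusted p = 0.386). At 0.2 ng/ml limma called 0 of the 8 genes, against 1.7% called higher and 0.782% lower, and 1 gene (Ldhb) had an unadjusted p under 0.05. For the difference between the genotypes in the 2 ng/ml effect, Slc16a3 was called with the replicate block by labelled series (adjusted p = 0.00949). In the main fit that difference was 0.67 ± 0.25 for Ldha (adjusted p = 0.162) and 1.43 ± 0.37 for Slc16a3 (adjusted p = 0.0572), neither called. The latter passed without either tKO library at 0.2 ng/ml (adjusted p = 0.0157 and 0.0141) and with only the 4 groups compared in the fit (adjusted p = 0.0172).

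Other genes of pyruvate handling were read from 35 listed genes, of which 22 were tested in each experiment. Over the doses 3 were called higher in tKO (Pkm, Bsg, Pcx) and 1 lower (Emb), and 18 were not called. With 13.9% of all tested genes called higher and 13.3% lower, this is no more than the background. Their median was -0.05. Pkm, which encodes the muscle-type pyruvate kinase that makes pyruvate, was 632 to 2082 FPKM in WT and 2418 to 4270 in tKO (1.60 ± 0.12, adjusted p = 5.0e-07). It rose by 2.67 ± 0.11 with DMOG (adjusted p = 8.0e-13), from 320.3, 322 and 356 FPKM to 1965, 2146 and 2262. Pcx, which encodes pyruvate carboxylase, the enzyme that makes oxaloacetate from pyruvate, was 1.80 to 15.3 FPKM in WT and 6.66 to 23.3 in tKO (1.02 ± 0.21, adjusted p = 0.00275). Its call was lost without series WT1 (adjusted p = 0.0599) or WT2 (adjusted p = 0.0706). The Pcx difference was not called at 0 ng/ml, where it was -1.05 to -0.31 with 1 library left out. It was 1.15 at 0.2 ng/ml, also not called in the main fit, and 2.49 to 2.69 at 2 ng/ml with 1 library left out. At 0.2 ng/ml it passed with a filter at a mean of 5 FPKM (adjusted p = 0.0487), quantile normalization (adjusted p = 0.0419) or a replicate block by number (adjusted p = 0.0336). With 1 library left out it was 0.49 to 1.81 there. Pcx rose by 1.88 ± 0.12 with DMOG (adjusted p = 4.1e-10).

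Mpc1 and Mpc2 encode the mitochondrial pyruvate carrier, and each was called between the genotypes at 1 dose, in opposite directions. Mpc1 was higher in tKO at 0.2 ng/ml (0.84 ± 0.24, adjusted p = 0.0300), a call lost without either WT library or tKO replicate 2 at that dose, or either tKO library at 2 ng/ml, with only the groups compared, and with no filter on low values (adjusted p = 0.0515 to 0.239, with 0.46 without tKO replicate 2 at that dose). Mpc2 was lower in tKO at 2 ng/ml (-0.999 ± 0.24, adjusted p = 0.0127), a call lost when any 1 of the 4 libraries compared was left out or no filter on low values was used (adjusted p = 0.0527 to 0.0870). Over the doses they differed by 0.16 ± 0.14 (adjusted p = 0.420) and -0.31 ± 0.14 (adjusted p = 0.120). Mpc1 passed without series tKO1 (0.40, adjusted p = 0.0108), and Mpc2 without series tKO2 (-0.51, adjusted p = 0.0208) or tKO at 0.2 ng/ml replicate 2 (-0.42, adjusted p = 0.0216). With DMOG Mpc1 rose by 0.78 ± 0.11 (adjusted p = 1.2e-05) and Mpc2 differed by -0.07 ± 0.11 (adjusted p = 0.619). Dlat, the E2 subunit of the complex, was 0.05 ± 0.12 over the doses (adjusted p = 0.786) and rose by 0.26 ± 0.11 with DMOG (adjusted p = 0.0415), a call lost when any library but DMOG replicate 1 was left out (adjusted p = 0.0514 to 0.148).

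With DMOG 7 of the 22 tested genes were called higher and 4 lower, against 27.7% and 33.2% of all tested genes. The share called higher was near that background, and the share called lower was below it. Besides those given, Me2 (a mitochondrial malic enzyme, which makes pyruvate from malate) rose by 0.75 ± 0.11 (adjusted p = 1.2e-05) and Got1 (the cytosolic aspartate aminotransferase) rose by 0.84 ± 0.11 (adjusted p = 6.2e-06). Lias and Lipt1, which serve lipoylation of the complex, fell by 0.37 ± 0.11 and 0.30 ± 0.10 (adjusted p = 0.00854 and 0.0165), and Gpt, an alanine aminotransferase, fell by 0.28 ± 0.10 (adjusted p = 0.0196). The Lias call was lost without vehicle replicate 3 (adjusted p = 0.0660). That of Lipt1 was lost without DMOG replicate 1 or vehicle replicate 3 (adjusted p = 0.0603 and 0.0889), and that of Gpt without vehicle replicate 1 or DMOG replicate 3 (adjusted p = 0.0790 and 0.0907). Quantile normalization also ended the calls of Lipt1 (-0.16, adjusted p = 0.161) and Gpt (-0.18, adjusted p = 0.127). In WT 2 ng/ml TGF-b lowered 6 of the 22 listed genes (8 had an unadjusted p under 0.05), among them Pkm (-1.68 ± 0.21, adjusted p = 0.000210) and Pcx (-2.47 ± 0.37, adjusted p = 0.000678). Of all tested genes 7.91% were called lower there and 7.79% higher. Bsg, Emb and Got1 were also called lower (-0.66, -0.60 and -0.85), calls lost in 3, 6 and 2 of the fits with 1 library left out.

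**Figure D5:**
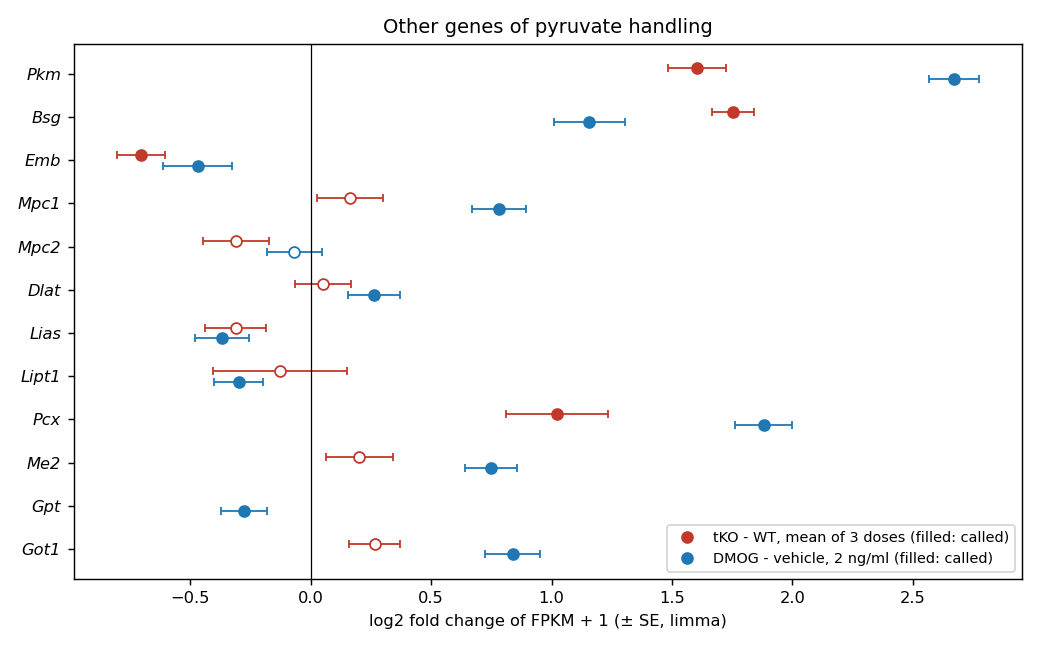
log2 fold change of FPKM + 1 with its SE (x axis) for 12 other genes of pyruvate handling (y axis), tKO minus WT over the 3 doses in red and DMOG minus vehicle in blue; filled points passed an adjusted p of 0.05. Pkm, Bsg and Pcx were called higher in both, Emb lower in both, and Gpt was too low for a test in experiment 1. Taken alone, the doses 0 and 0.2 ng/ml gave no call for Pcx in the main fit, and some alternatives gave one at 0.2 ng/ml.

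Genes whose levels ran closest to 4 members were sought by Pearson r of log2(FPKM + 1) among 9191 genes, as a description. The points share the libraries and the separation of WT from tKO, so a high r largely restates which genes differ between the groups. Closest to Ldha over the 12 libraries were Gapdh (0.998), Tpi1 (0.994) and Pgam1 (0.992), all glycolytic enzymes, with 0.995 to 0.997 over the 6 libraries of experiment 2. Closest to Slc16a3 were Pgm2 (0.995), Map2k1 (0.985) and Bnip3 (0.981), with 0.974 to 0.979 in experiment 2. For Pdk1 they were Arcn1 (0.921), Mtbp (0.905) and Sec23a (0.901), with 0.891 to 0.989. For Ldhb they were Gnpda1 (0.898), Celf1 (0.879) and Dcun1d4 (0.845), with 0.547 to 0.960.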

How the data were processed

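RNA from RNeasy columns was amplified by the SMARTer Ultra kit for low input, which does not mark strand, per the labels' protocols. The authors deposited FPKM values per gene entry and library, 1 table per experiment. Per the submitters' processing notes, the mm9 build and the tools Cuffdiff, Cufflinks, TopHat and Trimmomatic were used, in versions not given there. After 18 and 291 exact duplicate entries were dropped, entries of the same symbol were summed. The FPKM keep no counts, so no counting error is given.

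Genes that averaged 1 FPKM or more were fitted on log2(FPKM + 1) with limma 3.58.1 (R 4.3.3), 1 coefficient per group, a mean-variance trend, two-sided tests and Benjamini-Hochberg adjustment over 10354 genes in experiment 1 and 9884 in experiment 2. The script was tested on simulated data. The 8 genes, the list of 35 other genes and the tests were chosen with earlier results of these data known. Named among the 35 were Pkm, Bsg, Mpc1, Mpc2 and those called over the doses or with DMOG, by smallest adjusted p, up to 12 in all. For Ldha, Ldhb, Slc16a3 and Pdk1 the 3 genes of highest r in experiment 1 were named. Alternatives changed the added amount, the filter, the scaling, the summing of entries, the block and the libraries. Promoter sequences came from RefSeq (GRCm38.p6), matched by symbol for all 8 genes.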

Additional observations from a re-analysis of the deposited data

Results flagged for a closer look

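Among the 8 genes and the 22 tested genes of the list, the effect of 2 ng/ml TGF-b differed between tKO and WT in 3. The test was of that difference itself (limma, adjusted over all tested genes), where 1.55% of all tested genes were called higher and 1.43% lower. For Pdk1 the tKO minus WT difference was 1.64 ± 0.38 (adjusted p = 0.0401), with an effect of -0.88 in WT and 0.76 in tKO. For Pkm the difference was 1.54 ± 0.30 (adjusted p = 0.0174), with -1.68 in WT and -0.14 in tKO. It lost its call without either library of WT at 0 or 2 ng/ml or of tKO at 2 ng/ml, or without tKO at 0 ng/ml replicate 2 (adjusted p = 0.0554 to 0.0925), and with no filter on low values (adjusted p = 0.0909). For Pcx it was 3.27 ± 0.52 (adjusted p = 0.00576), with -2.47 in WT and 0.80 in tKO, and lost its call with no filter on low values (adjusted p = 0.0523). No explanation of these differences was tested.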

How the results depend on the processing

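No called value of a member changed direction in any alternative (728 values), and 24 of 975 uncalled values changed sign. The number of the 8 genes called moved by more than 1.5 times as follows; the cause was not tested. Of 1 gene called for tKO at 2 minus 0 ng/ml, 2 were called with 0.1 FPKM added, 2 with a filter at a mean of 5 FPKM, 3 with quantile normalization and 2 with only the groups compared. Of 1 for WT at 0.2 minus 0 ng/ml, 2 were called with 5 FPKM added, 0 with no filter, 2 with a filter at 5 FPKM, 2 with quantile normalization and 0 with only the groups compared. Of 5 for WT at 2 minus 0 ng/ml, 3 were called with no filter and 3 with median-of-ratios scaling. Of 1 for the difference of the TGF-b effects, 0 were called with no filter, 3 with quantile normalization and 2 with only the groups compared. Of 3 and 5 between genotypes at 0 and 0.2 ng/ml, 1 and 2 were called with only the groups compared, a fit with fewer samples.

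Replicate numbers were shared between groups. Deviations of same-numbered libraries correlated at -0.11 to 0.25 between genotypes, at 0.057 to 0.19 between doses of WT, at 0.11 to 0.42 between doses of tKO, and at -0.19 to 0.44 between the treatments of experiment 2. The labels do not say what a number shares and not every correlation exceeded 0.1, so the main fit did not take the libraries as paired. Within a genotype all of these correlations were positive, and the main fit leaves out any pairing of doses by series. Among the tKO doses, 0 and 0.2 ng/ml deviated together most (0.42), and the other pairs were at 0.13 and 0.11. The libraries of series tKO1 did share Y chromosome transcripts at all 3 doses, as given above, and those of tKO2 lacked them. The tKO libraries of a series were thus alike in sex across the doses. With the replicate block by number, 3 genes were called for tKO at 2 minus 0 ng/ml, 2 for WT at 0.2 minus 0 and 2 for the difference of effects, and with the replicate block by labelled series 2, 2 and 2. The Slc16a3 difference of effects (1.43) was called under both blocks (adjusted p = 0.0118 and 0.00949). The other calls gained among the 8 genes were Ldha (adjusted p = 0.0435) and Pdk1 (adjusted p = 0.0378) by number and Pdk1 (adjusted p = 0.0263) by series for tKO at 2 minus 0 ng/ml, and Ldha (adjusted p = 0.0487) by number and Pdk2 (adjusted p = 0.0381) by series for WT at 0.2 minus 0. Pdk2 at 2 ng/ml between genotypes was called by number (adjusted p = 0.0363). Over all genes, the replicate block by number gave 512 calls for the difference of effects, against 308, and the block by series gave 686, and 283 and 413 for 0.2 minus 0 ng/ml in WT and tKO, against 165 and 257.

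Over all genes, tKO minus WT over the doses had 2817 calls, 1539 without series WT1, 1316 without WT2 and 1840 with 1 mean per series. No filter gave 72 calls for WT at 0.2 minus 0 and 157 for the difference of effects. With only the groups compared there were 631 calls at 0.2 ng/ml (against 1604), and 81, 27 and 511 for 0.2 minus 0 in WT, in tKO and the difference of effects. Leaving out 1 library gave, for the 8 genes and for all genes, 6 to 7 and 2204 to 3224 calls over the doses, 2 to 3 and 512 to 1255 at 0 ng/ml, 4 to 5 and 777 to 2675 at 0.2, 3 to 6 and 725 to 2166 at 2, 3 to 6 and 660 to 2115 for WT at 2 minus 0, 0 to 2 and 31 to 259 for WT at 0.2 minus 0, 1 to 3 and 575 to 2404 for tKO at 2 minus 0, 0 to 0 and 119 to 718 for tKO at 0.2 minus 0, 0 to 2 and 78 to 738 for the difference of effects, and 7 to 7 and 5270 to 6297 with DMOG. Absolute depth is unknown, so what it limits could not be given per gene.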
